A study of Homo sapiens with 20 samples.

Results

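The 38 genes described here belong to the 4 human HOX clusters: 10 of HOXA on chromosome 7, 10 of HOXB on chromosome 17, 9 of HOXC on chromosome 12 and 9 of HOXD on chromosome 2. They are named by a list of gene symbols, and the rule for a member uses no measured value, although the HOX clusters were picked as a subject with earlier results of these data known. They make up 38 of the 19974 protein-coding genes on chromosomes 1 to 22 and X that served as background. The study profiled chromatin of the established human line HCT116, from a colorectal carcinoma, by ChIP-seq (sequencing of DNA recovered with an antibody to a chromatin protein or mark). Unedited cells (WT) were set against cells lacking MLL4 (KO), the histone H3 lysine 4 methyltransferase also called KMT2D. Both lines were grown in DMEM with serum, no p53-activating agent is named, and the labels do not say whether the knockout is 1 clone. Each genotype was profiled with 2 libraries for p53, H3K4me3 and H3K27ac, and with 1 for MLL4, H3K4me1 and MLL1 (KMT2A, a related methyltransferase). Separate cultures are not named for the replicates, and the spread between them, which is all that the p-values measure, may be technical.

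HOX genes encode homeodomain transcription factors that give cells their position along the body axis, and they lie in each cluster in the order in which they act, from low paralog numbers (head side) to high ones (tail side). MLL1 and its fly relative trithorax maintain active HOX genes, marked by H3K4me3 at their starts, while Polycomb complexes keep the others silent. H3K27ac marks active promoters and enhancers, H3K4me1 lies at enhancers and beside promoters, and MLL4 is a main writer of H3K4me1 at enhancers. The gut keeps a position-specific set of HOX genes active in adult life, and HOXB13 marks its distal end.

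Each value below is a fold: the enrichment of a peak over the background estimated from the input DNA of the same genotype, as the authors' MACS2 peak lists give it for each library. All WT lists share 1 input and all KO lists share another. A promoter counted as marked when a peak overlapped the 1 kb on either side of a gene start, and the highest fold among those peaks is given. For 18 members with no start in the RefSeq promoter table (GRCh38.p14), either end of the gene was used. The table holds a start for the other 20 members and for 15812 of the 19974 background genes. A start was thus missing for a larger share of the members than of the background. Reading either end can raise the member shares set beside those of all genes below. It can also miss a start that lies inside a gene. A background matched for this was not tested. A cluster window ran from its first to its last member with 20 kb added on each side, from 139.7 kb for HOXA to 240.2 kb for HOXB.

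The lists differed in length. H3K4me3 lists held 18388 to 20922 peaks, and the 2 WT H3K27ac lists (139104 and 198757 peaks) were longer than the 2 KO lists (65050 and 61959). H3K4me1 had 125507 WT and 43636 KO peaks, and MLL1 had 36933 and 29072. MLL4 had 56770 peaks in WT and 278 in KO, and 0 of the KO peaks lay in a HOX window. Of 10 colon epithelium markers 8 carried H3K4me3 in both WT lists, CDX2, a regulator of intestinal identity, among them, against 1 of 7 blood cell markers. The share of all genes was 60.8%.

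Promoter sequences of 6 members are shown first because these genes mark the contrasts below: HOXA9 (in 1 peak with HOXA10) and HOXA11 carried the highest WT MLL1 folds, HOXD8 was the one HOXD gene with H3K4me3 in every library, and HOXA2, HOXD10 and HOXD13 had H3K27ac in WT but no H3K4me3. Each run is the 250 bases before the start in RefSeq (GRCh38.p14), 5′ to 3′ on the strand of the gene, with CG dinucleotides, the sites of CpG methylation, in capitals. HOXA9 (minus strand, chr7:27165538-27165787), HOXA11 (minus, chr7:27185233-27185482) and HOXA2 (minus, chr7:27102684-27102933) come from HOXA. HOXD8 (plus strand, chr2:176129455-176129704), HOXD10 (plus, chr2:176116528-176116777) and HOXD13 (plus, chr2:176092471-176092720) come from HOXD.
HOXA9: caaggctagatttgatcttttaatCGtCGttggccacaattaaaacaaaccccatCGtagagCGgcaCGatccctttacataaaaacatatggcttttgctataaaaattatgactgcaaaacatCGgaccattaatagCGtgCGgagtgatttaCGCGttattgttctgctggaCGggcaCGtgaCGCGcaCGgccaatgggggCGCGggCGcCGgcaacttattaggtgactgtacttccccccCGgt
HOXA11: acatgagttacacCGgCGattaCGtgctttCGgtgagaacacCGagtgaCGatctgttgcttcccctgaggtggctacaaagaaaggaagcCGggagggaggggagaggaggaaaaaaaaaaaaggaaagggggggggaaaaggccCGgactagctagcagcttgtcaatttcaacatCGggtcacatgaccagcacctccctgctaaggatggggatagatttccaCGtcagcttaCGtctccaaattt
HOXD8: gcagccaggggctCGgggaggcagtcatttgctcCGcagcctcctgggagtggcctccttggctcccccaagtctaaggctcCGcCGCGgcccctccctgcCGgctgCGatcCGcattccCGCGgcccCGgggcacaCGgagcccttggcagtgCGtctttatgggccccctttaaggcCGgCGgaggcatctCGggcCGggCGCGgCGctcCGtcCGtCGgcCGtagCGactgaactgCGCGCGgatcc
HOXA2: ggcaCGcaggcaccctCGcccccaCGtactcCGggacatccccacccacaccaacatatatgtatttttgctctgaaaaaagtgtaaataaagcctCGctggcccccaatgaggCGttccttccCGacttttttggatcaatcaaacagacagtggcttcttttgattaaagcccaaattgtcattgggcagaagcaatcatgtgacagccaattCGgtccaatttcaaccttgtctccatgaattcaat
HOXD10: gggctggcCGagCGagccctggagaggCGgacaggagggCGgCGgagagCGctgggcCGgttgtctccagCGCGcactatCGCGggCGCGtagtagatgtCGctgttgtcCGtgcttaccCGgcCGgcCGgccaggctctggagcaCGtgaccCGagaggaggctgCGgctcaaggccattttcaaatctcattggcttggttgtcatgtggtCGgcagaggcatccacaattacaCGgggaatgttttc
HOXD13: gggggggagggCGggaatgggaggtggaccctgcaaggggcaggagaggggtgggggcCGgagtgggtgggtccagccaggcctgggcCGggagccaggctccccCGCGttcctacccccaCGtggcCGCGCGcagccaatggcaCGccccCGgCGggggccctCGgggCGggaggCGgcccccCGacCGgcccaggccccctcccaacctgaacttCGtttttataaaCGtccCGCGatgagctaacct
The 250 bases hold 20 CG in HOXA9, 11 in HOXA11, 28 in HOXD8, 8 in HOXA2, 23 in HOXD10 and 21 in HOXD13, so promoters with at least 20 CG were found both with and without H3K4me3. RefSeq held promoter sequences for 20 members, 26 distinct runs of 300 bases in all, with a median of 22.5 CG against 14 over all 34943 promoters. Of the member runs 7 belong to HOXA3. The motif CCAAT, on either strand, was in 65.4% of the member runs and in 34.6% of all runs. The motif TTTATGG, on either strand, was in 3.85% of the member runs, that of HOXD8, and in 2.55% of all.

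H3K4me3 split the members into 2 sets that were the same in both genotypes. It was called in every library at 21 of 38 promoters, against 60.3% of all protein-coding genes, and in no library at 16, against 36.2%. The same 21 were those called in both WT libraries (60.8% of all genes) and in both KO libraries (61.3%). No promoter was called in both WT and neither KO library (0.31% of all genes, 0.511% of those called in both WT libraries) or the reverse (0.165%). HOXD11 had a peak of fold 12.2 in WT replicate 2 alone, the 1 member with a mixed call (3.05% of all genes). The plot of every member by library shows the marked genes as blocks.

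**Figure D1:**
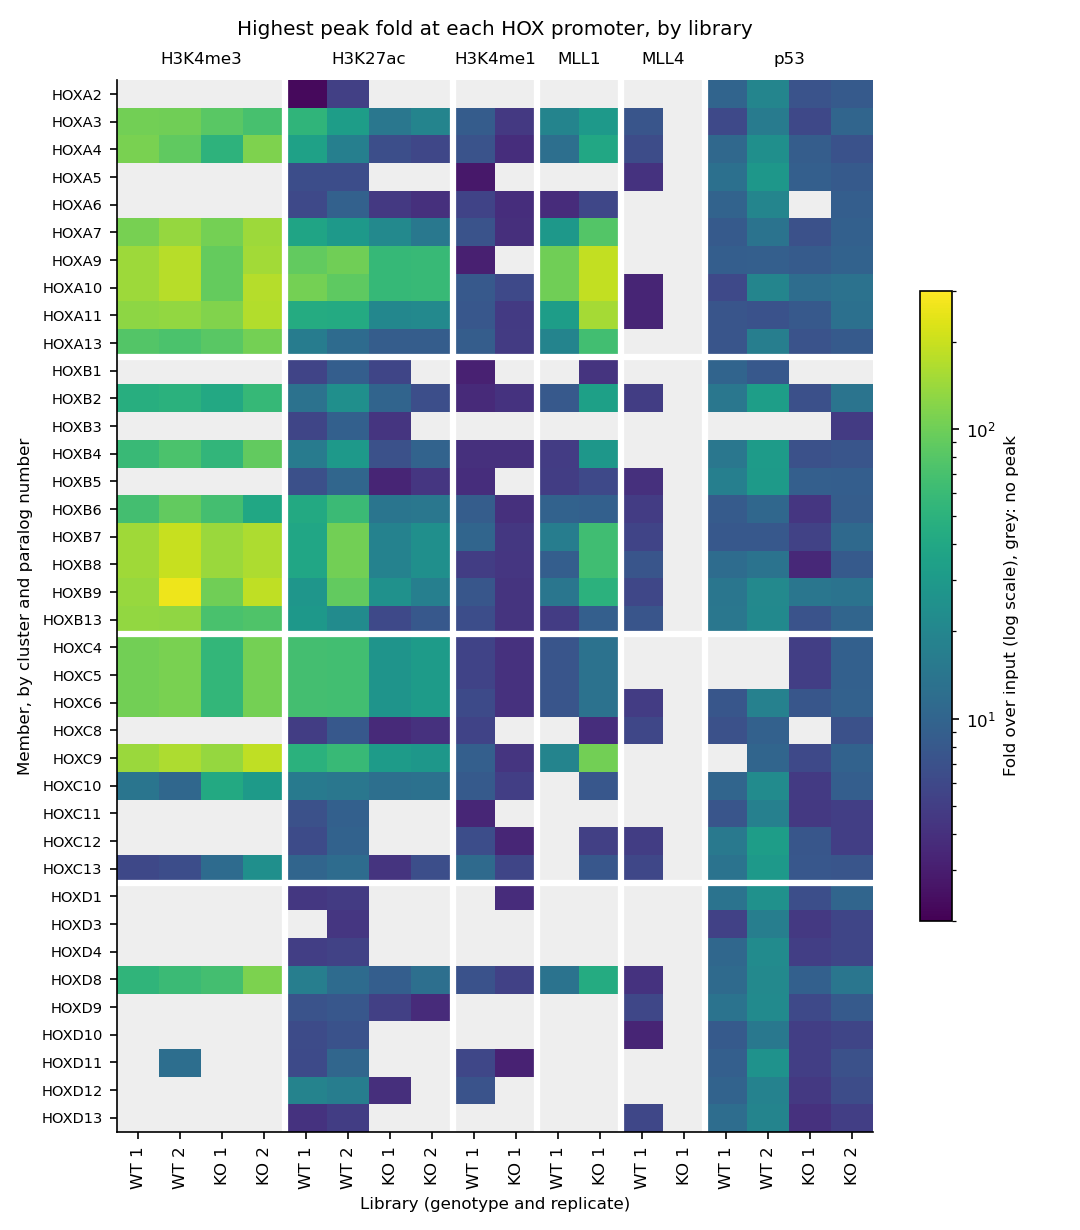
Highest fold over input (colour, log scale) of the peaks at each of the 38 HOX promoters (rows, by cluster and paralog number) in each of the 18 libraries (columns, by target). Grey means no peak: in the HOXD block HOXD8 alone has H3K4me3 in all 4 libraries, the MLL4 KO column is empty, and p53 columns are filled in nearly every row.

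By cluster the marked genes were 7 of 10 in HOXA, 7 of 10 in HOXB, 6 of 9 in HOXC and 1 of 9 in HOXD. By position they were 2 of the 7 anterior members (paralogs 1 to 3), 10 of the 15 central members (4 to 8) and 9 of the 16 posterior members (9 to 13). These are counts of genes and not of separate peaks. HOXC4 and HOXC5 have the same listed start, which is also the lower coordinate end of HOXC6. In the HOXC and central counts these 3 genes rest on 1 shared peak in each library. The anterior pair was HOXA3, needed for thymus and parathyroid, and HOXB2. HOXA3 has 7 listed starts, the furthest at chr7:27152583, beyond HOXA4, HOXA5 and HOXA6. Its calls and folds here and below are the highest over all of them and do not stand for an anterior position alone. HOXD8 reached folds of 53.3 and 61.2 in WT, and its KO folds were 66.6 and 112. In the HOXD window the antisense RNA gene HOXD-AS2, named after its values were seen, had 74.4 and 61.6 in WT and 39.7 and 97.1 in KO, which overlap. Another H3K4me3 region at chr2:176096804-176098397, over 1 kb from any gene start and between HOXD13 and HOXD12, had folds of 42.4 and 46.0 in the WT libraries and 63.8 and 76.9 in KO. At HOXD8 and at this region each KO value lay above both WT values.

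The highest WT H3K4me3 folds stood at posterior and central genes. HOXB9 had 139 and 264 in WT and 101 and 185 in KO. HOXB7 and HOXB8, which share 1 peak, had 148 and 195 in WT and 141 and 162 in KO. In both places the genotypes overlapped. HOXC9, which sets thoracic motor neuron identity, had 141 and 162 in WT and 137 and 187 in KO. HOXC4, HOXC5 and HOXC6 share 1 peak, with 103 and 109 in WT and 55.4 and 106 in KO. At these peaks too the WT and KO values overlapped, whereas at HOXD8 they did not.

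One domain stood apart by its width. A single H3K4me3 peak ran from inside HOXA9, a regulator of blood stem cells that is often raised in MLL1-rearranged leukaemia, into HOXA10, a gene of uterine development. It was 11091 bp wide in WT replicate 1 (rank 2 by width of 20922 peaks), 11314 bp in WT replicate 2 (rank 3 of 19668) and 11566 bp in KO replicate 1 (rank 1 of 20475). In KO replicate 2 it was listed as 2 peaks, 7214 bp and 4217 bp wide, with a gap of 333 bp. H3K4me3 peaks covered 11.74 and 12.03 kb of the 17.4 kb from HOXA9 to HOXA10 in WT, and 12.43 and 12.24 kb in KO. Its fold was 145 and 174 in WT and 92.2 and 150 at HOXA9 in KO, which overlap.

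MLL1 covered the same stretch. In WT its peak there was 11531 bp wide, the widest of 36933 MLL1 peaks, and with a fold of 101 it ranked 7 by fold. In KO it was 13177 bp wide (rank 2 of 29072) with a fold of 189 (rank 68). H3K27ac was listed as 2 peaks in each WT library, 6968 and 6706 bp wide in replicate 1, and as 1 peak of 12684 bp (rank 15 of 65050) and 12417 bp (rank 6 of 61959) in KO. The H3K27ac fold at HOXA9 was 90.4 and 101 in WT and 57.9 and 58.4 in KO, lower in both KO libraries. The acetylated stretch was thus listed as 1 peak of lower fold in KO, while the length covered between HOXA9 and HOXA10 was 14.2 and 14.2 kb in WT and 13.4 and 13.7 kb in KO. MLL4 had 1 peak there in WT, 251 bp wide.

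**Figure D2:**
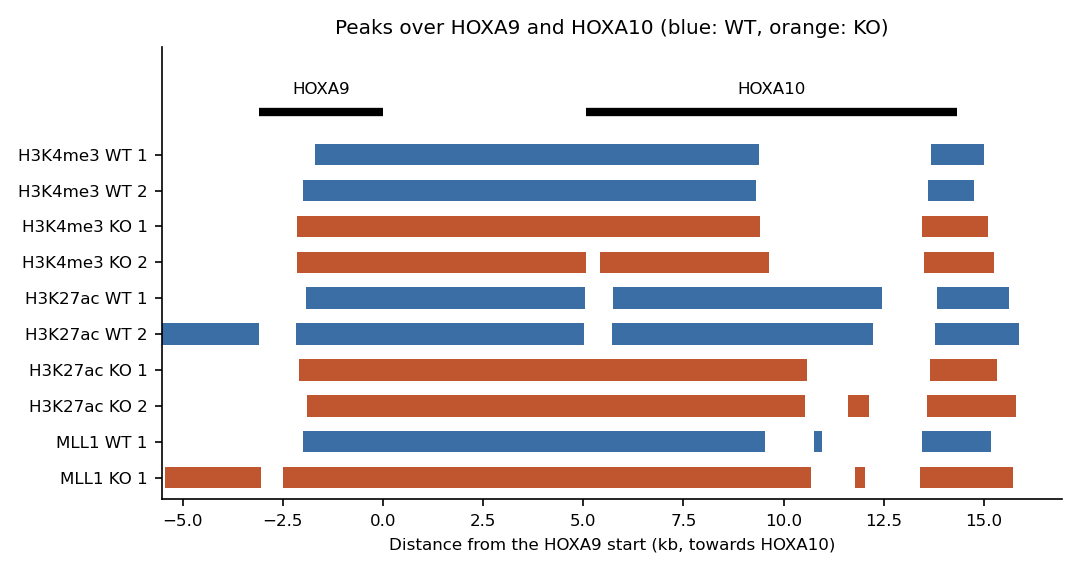
Peaks over HOXA9 and HOXA10 in each H3K4me3, H3K27ac and MLL1 library, by distance in kb from the HOXA9 start (blue WT, orange KO, black bars the genes). One H3K4me3 peak 11091 to 11566 bp wide runs from inside HOXA9 to inside HOXA10 in 3 libraries, and the 2 H3K27ac peaks of WT are 1 peak in each KO library.

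H3K4me3 fold differed by 2 times or more at 2 of the 21 marked promoters, HOXC10 and HOXC13, both higher in KO, where 1.31% of all promoters called in every library were. None of the 21 was 2 times lower (2.01% of the same promoters), and 9 of 21 were higher in KO by any amount (43%). HOXC10, a gene of lumbar and hindlimb identity, had 13.9 and 10.8 in WT, against 42.3 and 30.4 in KO. Its WT values came from a peak at its higher coordinate end, where all 4 libraries were alike (13.9 and 10.8 in WT, 15.1 and 10.4 in KO). At its lower coordinate end (chr12:53985146), shared with the antisense RNA HOXC-AS3, the WT folds were 8.11 and 6.72 and the KO folds 42.3 and 30.4, a ratio of means of 4.90. Reads there cannot be assigned to HOXC10 or to HOXC-AS3. HOXC13, needed for hair and nails, had 5.94 and 6.55 in WT and 11.4 and 24.2 in KO. Without KO replicate 2 the HOXC13 difference was 0.87 on the log2 scale, and without KO replicate 1 it was 1.95. MLL1 was listed at both genes in KO alone, with a fold of 7.77 each. H3K27ac was lower in KO at HOXC13 (10.2 and 11.7 in WT, 4.28 and 6.61 in KO), and it was 15.4 and 14.7 in WT and 12.6 and 13.1 in KO at HOXC10.

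In 4 of the 21 marked promoters both KO folds lay above both WT folds (10.6% of all promoters called in every library), and in 2 both lay below (21.5%). The latter were HOXA3, with 104 and 101 in WT against 83.8 and 69.4, and HOXB13, a gene of distal gut and prostate, with 132 and 132 in WT and 71.5 and 74.9 in KO. HOXB13 H3K27ac was 28.7 and 22.5 in WT and 6.06 and 7.97 in KO, with no overlap. Its H3K4me3 peak was wider in KO, 2262 and 2592 bp against 1795 and 1589 bp. Wider H3K4me3 peaks in KO were found across the genome, with list medians of 1920 and 1936 bp against 1679 and 1709 bp in WT. The median member had a log2 KO over WT of -0.18, beside -0.05 over all genes. That median changed sign when 1 library was left out (0.12 without KO replicate 1, 0.04 without WT replicate 2), and no shift of H3K4me3 over the members can be read from it.

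**Figure D3:**
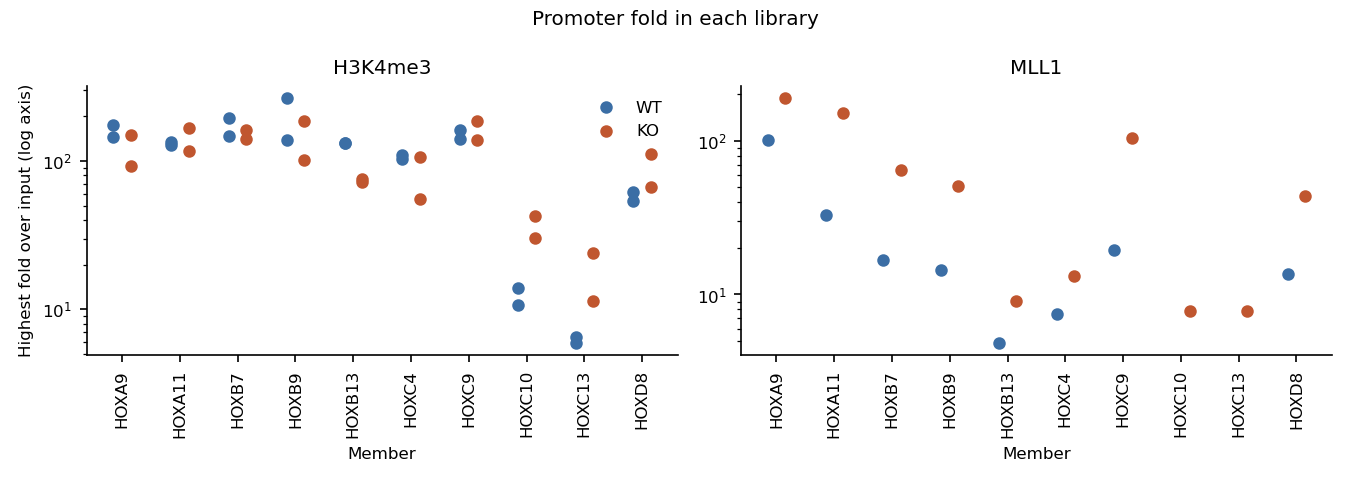
Highest H3K4me3 (left) and MLL1 (right) fold over input, on a log axis, at 10 members in each library (blue WT, orange KO). HOXC10 and HOXC13 lie higher and HOXB13 lower in KO for H3K4me3, and MLL1 at HOXC10 and HOXC13 has a KO point alone.

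H3K27ac differed between the 2 sets of members. At the 21 promoters with H3K4me3 it was called in all 4 libraries, and at the 16 without H3K4me3 it was called in 15 and 16 of 16 in WT and in 7 and 4 in KO. The same contrast was seen over the genome: of all genes without H3K4me3, 43.6% and 52.2% had H3K27ac in WT and 18.0% and 13.6% in KO, against 97.9% to 99.3% of those with H3K4me3 in every library. Over all members 37 of 38 had H3K27ac in both WT libraries (77.1% of all genes) and 25 in both KO libraries (63.7%), the same 25 being called in every library (63.4%). It was called in both WT and neither KO library at 9 of 38 (9.02%), which is 9 of the 37 called in both WT libraries (11.7%). In both KO and neither WT library it was called at none (0.0551%). Here and below, fewer cells carrying a mark and less of the mark per cell cannot be told apart.

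Of these 9 genes 8 had no H3K4me3 in any library, 8 of 16 such members, where 21.6% of all promoters without H3K4me3 behaved so. The 21.6% is 1561 of 7231 promoters, of which only 3152 and 3772 had H3K27ac in the 2 WT libraries. Of the 16 members 15 and 16 had it there, so the 2 shares do not show a larger loss at HOX promoters. The remaining gene of the 9 was HOXD11. Of the HOXD cluster 5 of 9 members were among these 9 genes. HOXD13, a gene of digits and external genitalia, had 4.21 and 5.00 in WT. HOXD10, active in hindlimb motor neurons, had 6.30 and 7.05. HOXD11 had 6.18 and 10.4. Each lay below the lowest value at a promoter with H3K4me3 in the same library (10.2 in WT replicate 1 and 11.5 in WT replicate 2). HOXD4 had 5.10 and 5.37. HOXD1 had 4.51 and 4.78. In HOXA and HOXC the genes were HOXA2, HOXA5, HOXC11 and HOXC12. HOXA2, which patterns the second pharyngeal arch, had 2.26 and 5.20, and HOXA5, a gene of lung development, had 6.60 and 6.49. HOXC11 had 6.90 and 9.30. HOXC12 had 6.30 and 9.67. None of the 9 had a KO peak.

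The count depended on how peaks were taken. With the lists of both genotypes limited to equal length it was 5 of 38 (2.72% of all genes), HOXA5, HOXC11, HOXC12, HOXD10 and HOXD11. With a window of 5 kb it was 4 of 38 (8.44%), all in HOXD. HOXD12 was outside the 9 because of 1 KO peak: it had 18.8 and 16.6 in WT, the highest WT H3K27ac of the 16 members without H3K4me3, and 3.96 in KO replicate 1 and no peak in KO replicate 2. The 4 members without H3K4me3 that kept H3K27ac in all libraries were HOXA6, HOXB5, HOXC8 and HOXD9.

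**Figure D4:**
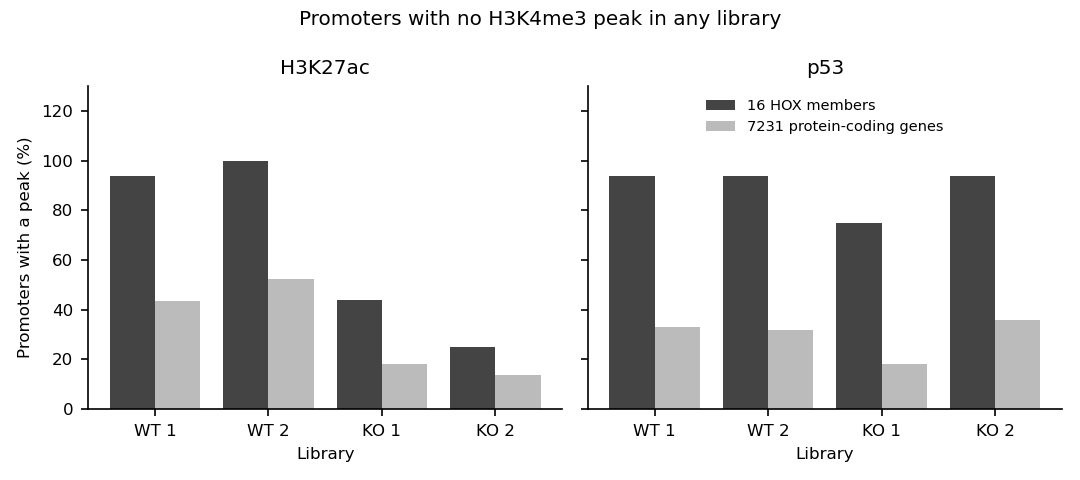
Percentage of promoters with an H3K27ac (left) or p53 (right) peak in each library, for the 16 HOX members (dark) and the 7231 protein-coding genes (light) with no H3K4me3 peak in any library. H3K27ac goes from 15 and 16 members in WT to 7 and 4 in KO, while p53 stays at 12 to 15.

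Where H3K27ac was called in every library, at 25 members, its fold was lower in both KO than in both WT libraries at 24 (88.2% of all promoters so called), and lower by 2 times or more at 15 (46.7%). None was 2 times higher in KO (0.0868%) or had both KO above both WT folds (0.789%). The members' median log2 KO over WT was -1.14 beside -0.96 for all genes, so lower folds in KO were found across the genome and not at HOX promoters alone. The exception was HOXD8, with 17.1 and 11.5 in WT, against 8.99 and 12.5 in KO. HOXA4 had the lowest ratio, with folds of 35.0 and 17.3 in WT against 6.71 and 5.79. HOXB6 had 42.2 and 61.2 in WT against 13.9 and 14.5. HOXB7 and HOXB8 had 38.8 and 103 in WT against 18.6 and 24.3. At these genes the KO values lay close together while the WT values spread more widely.

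Over whole windows, H3K27ac peaks covered less in KO in each cluster, with the lowest ratio in HOXD. There 34.0 and 47.2 kb were covered in WT and 6.90 and 6.77 kb in KO, a ratio of geometric means of 0.171. The ratio was 0.551 in HOXA, 0.422 in HOXB and 0.357 in HOXC, beside 0.325 for the genome. In each window both KO values lay below both WT values, and the two-sided exact permutation test gave p = 0.333, the smallest that 2 against 2 libraries allow, and 0.444 after Benjamini-Hochberg adjustment over 12 tests. H3K4me3 coverage in KO lay above both WT values in 3 of 4 windows, by small amounts: 33.0 ± 2.24 kb (SD, n = 2) in WT and 36.4 ± 1.68 kb in KO over HOXA, 13.6 ± 1.10 and 15.7 ± 1.88 kb over HOXC, and 7.08 ± 0.0537 and 8.25 ± 0.350 kb over HOXD (exact permutation p = 0.333 each, adjusted 0.444). Over HOXB the 2 genotypes overlapped (27.8 ± 7.29 and 24.9 ± 1.64 kb). Over HOXC the nearest values were 14.397 kb in WT replicate 1 and 14.414 kb in KO replicate 1. The ratio was 1.10 in HOXA, 1.15 in HOXC and 1.16 in HOXD, and 0.910 in HOXB, beside 1.08 for the genome. Over the genome too both KO lists (38.8 and 35.9 Mb) covered more than both WT lists (35.5 and 33.8 Mb).

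**Figure D5:**
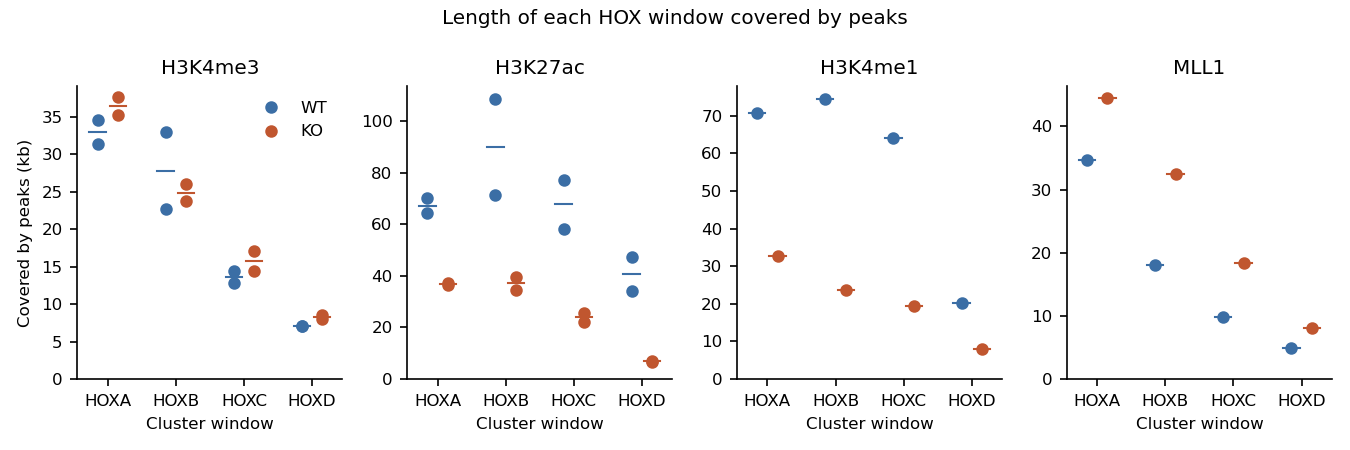
Length in kb of each HOX window covered by peaks of H3K4me3, H3K27ac, H3K4me1 and MLL1 in each library (points) with the mean (line), blue WT and orange KO. H3K27ac and H3K4me1 are lower in KO in all 4 windows, HOXD H3K27ac from 34.0 and 47.2 kb to 6.90 and 6.77 kb, and MLL1 is higher.

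H3K4me1, the mark most tied to MLL4, covered 229 kb of the 4 windows in WT and 84.0 kb in KO, 0.366 times, beside 0.228 times over the genome. It had 1 library per genotype, so no test was possible. At promoters it was listed at 30 members in WT and 24 in KO. Of all genes 71.9% were listed in WT, 57.8% in KO and 55.1% in both, as 23 members were. It was called in WT alone at 7 (16.8% of all genes), HOXA5, HOXA9, HOXB1, HOXB5, HOXC8, HOXC11 and HOXD12, and in KO alone at HOXD1 (2.76%). The WT-only count was 19 at a −log10 q-value of at least 5, and 2 with lists of equal length or a window of 5 kb, and the KO-only count ranged from 0 to 6. The highest WT fold was 11.3 at HOXC13, which was 5.66 in KO. HOXB7 had 10.3 and 4.48, and HOXC9 had 9.17 and 4.37. HOXD12 had 7.14 in WT and no KO peak, and HOXC8, a gene of brachial identity, had 5.44 and none. HOXB5 had 3.89 and none, and HOXD1 had none in WT and 3.75 in KO. Of the 7 WT-only promoters 6 were among the 16 without H3K4me3 (29.4% of all such genes), and 1 among the 21 with it (8.44%). The latter was HOXA9, whose peak of 3.12 in WT lay inside the wide H3K4me3 domain. A KO peak of fold 4.37 (chr7:27167597-27168794) overlapped this WT peak but lay outside the 1 kb window. The WT-only call at HOXA9 thus rests on the window edge and shows no loss of H3K4me1 there. Without H3K4me3, a WT peak was listed at 8 of the 16 members and at 2465 of all 7231 such genes. Those called in WT alone were 6 of the 8 members and 2125 of the 2465 genes. Of the 23 members listed in both, 4 were at least 2 times lower in KO (18.1% of all promoters listed in both) and none 2 times higher (0.318%).

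MLL4 itself was listed at 20 of 38 promoters in WT (38.8% of all genes) and at none in KO (0.015%). Of the members with H3K4me3 in every library 13 of 21 had MLL4 (52.8% of all such genes), and of those without H3K4me3 7 of 16 (16.4%). The folds were low, from 3.33 to 7.50, with the highest at HOXA3 (7.50), HOXB13 (7.47) and HOXB8 (7.43). In the windows, the tallest MLL4 peak had a fold of 24.2 and lay at chr2:176200906-176201239, outside the HOXD genes and past HOXD1.

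MLL1 was listed at 21 members in WT (58.9% of all genes) and 26 in KO (63.3%), the 21 being listed in both (57.1%). It was listed in WT alone at none (1.75% of all genes, 2.97% of those with a WT peak) and in KO alone at 5 (6.14%). The 5 were HOXC10 and HOXC13 (7.77 each), HOXC12 (5.18), HOXB1 (4.26), a gene of the hindbrain, and HOXC8 (3.89). With 1 library per genotype these calls have no replicate check. Outside the wide domain the highest WT fold was 32.8 at HOXA11, a gene of uterus and limb, which reached 152 in KO. Fold was higher in KO at 20 of the 21 members called in both (97.9% of all promoters called in both) and at least 2 times higher at 11 of them (81.3%), and at none was it 2 times lower (0.0964%). The median log2 was 1.44 beside 1.64 over all genes. The exception was HOXB6, with 9.60 in WT and 9.36 in KO. MLL1 peaks covered 67.3 kb of the windows in WT and 103 kb in KO, 1.53 times, beside 1.39 times over the genome. Higher MLL1 folds in KO were thus found across the genome. The members are not separate peaks here, since HOXA9 and HOXA10 share 1 MLL1 peak in each library. HOXB7 and HOXB8 share another in each, as do HOXC4, HOXC5 and HOXC6, and HOXB5 and HOXB6 share 1 in KO.

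Peaks of p53, the stress-response transcription factor, lay at most HOX promoters. They were called in both WT libraries at 34 of 38 (49.7% of all genes) and in both KO libraries at 34 (56%), and in every library at 31 (42.4%). Of the members without H3K4me3 p53 was called at 15 of 16 in each WT library, beside 33.0% and 32.0% of all genes without H3K4me3. RefSeq held the promoter of 9 of these 16, of which 5 had at least 20 CG in 300 bases, and 5 of 5 had p53 in both WT libraries. The same held for 89.05% of the 1260 genes with such a promoter and no H3K4me3. The members' median fold was 10.0 and 19.4 in the WT libraries, beside 9.06 and 16.9 over all promoters with a p53 peak. HOXB5 had 17.3 and 30.7 in WT and 9.19 and 8.89 in KO. HOXC12 had 15.1 and 32.4 in WT and 7.66 and 5.08 in KO. HOXB2 had 14.6 and 32.9 in WT and 6.81 and 13.6 in KO. In all 3 both KO values lay below both WT values. By contrast, the highest p53 peak of the genome had a fold of 173 in WT replicate 1 and 442 in WT replicate 2.

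In KO the p53 fold at members called in every library was at least 2 times lower at 19 of 31 (31.4% of all promoters with p53 in every library), and both KO values lay below both WT values at 19 of 31 (44.6%). The median log2 was -1.11 beside -0.66 over all genes. WT replicate 2 had a large part in this value: its members' median fold was 19.4, against 10.0 in WT replicate 1, and without it the median log2 was -0.56. Over all genes too its median fold was higher, 16.9 against 9.06. The median log2 of all genes without this library was not computed, so -0.56 has no matching background value. HOXA9, HOXA10 and HOXA11 were among those where the KO folds were not below the WT folds. HOXA9 had 9.01 and 9.09 in WT and 8.38 and 9.72 in KO. HOXA11 had 7.55 and 7.05 in WT, against 8.17 and 12.7 in KO, the one member with both KO values above both WT values (5.6% of all promoters with p53 in every library). HOXB1 was called in WT alone, 10.1 and 7.94 (1.33%), and the start shared by HOXC4 and HOXC5 in KO alone, 5.04 and 9.27 (7.76%). The length covered did not fall with the folds. Peaks of p53 covered 59.1 and 64.0 kb of the 4 windows in WT and 59.3 and 103 kb in KO. The ratio of geometric means was 1.27, as for the genome. Both KO values lay above both WT values over HOXA and HOXC (exact permutation p = 0.333 each, adjusted 0.444). Over HOXB and HOXD the genotypes overlapped.

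Away from gene starts the windows held 68 H3K27ac regions called in both WT libraries, of which 35 were called in neither KO library, 51.5% beside 63.5% over the genome. With lists of equal length the count was 5 and at a −log10 q-value of at least 5 it was 21, and it was 79 without WT replicate 1. In HOXD 12 regions were called in WT alone, 9 in HOXC and 7 in each of HOXA and HOXB. For H3K4me1 28 of 37 WT regions were not listed in KO, 75.7% beside 87.9%. Of the 27 MLL4 regions none was listed in KO, as for 99.7% of those of the genome. H3K4me3 differed from these: of 9 distal regions called in both WT libraries all 9 were called in both KO libraries (17.1% of such regions of the genome were called in neither). MLL1 had 27 such regions in WT, of which 13 were not listed in KO (48.1% beside 83.3%), and 18 of 45 regions were listed in KO alone (40% beside 35.7%). At a −log10 q-value of at least 5 these counts were 3 and 9, and with lists of equal length 6 and 20. For p53 6 of 44 were called in neither KO library, 13.6% beside 19.3%.

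Genes that work with the HOX proteins or control them were read by the same rule. Over all genes H3K4me3 was called in both WT libraries at 60.8%, in both KO libraries at 61.3% and in every library at 60.3%. The lists are short, and the 4 of 6 below is near that share. Of 9 TALE homeodomain genes, which encode partners of HOX proteins on DNA, 7 carried H3K4me3 in both WT libraries and 8 in both KO libraries. PBX2 had 157 and 156 in WT and 132 and 137 in KO. All 10 genes of the MLL1 complex and its partners and all 14 Polycomb genes carried H3K4me3 in every library. KMT2A, which encodes MLL1, had 196 and 219 in WT and 151 and 172 in KO for H3K4me3, and its MLL1 fold was 12.4 in WT and 71.2 in KO. CBX2, a Polycomb reader, had 244 and 251 in WT and 71.1 and 270 in KO. Of 6 retinoic acid receptor genes, whose products switch HOX genes in the embryo, 4 carried H3K4me3 in both genotypes, RARA with 177 and 197 in WT and 171 and 206 in KO.

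Related homeobox genes were counted as well. Over all protein-coding genes H3K27ac was called in both WT libraries at 77.1%, in both KO libraries at 63.7% and in WT alone at 9.02%. H3K4me3 was called in every library at 60.3%, near the 8 of 13 below, and in WT alone at 0.31%. MLL1 was listed at 58.9% in WT and 63.3% in KO. Of 8 ParaHox and even-skipped genes, 7 had H3K27ac in both WT libraries and 1 in both KO libraries, CDX2, and 4 were called in WT alone: PDX1, GSX1, GSX2 and EVX2, the last a neighbour of HOXD13. H3K4me3 was called in every library at CDX2 (174 and 179 in WT, 153 and 219 in KO), and at PDX1 in WT alone (6.21 and 81.3). Of 13 noncoding RNA genes in the clusters, 8 carried H3K4me3 in both genotypes, and their promoters often share a peak with a HOX gene, as at HOXA10-AS. Their H3K27ac went from 13 in both WT libraries to 9 in both KO libraries, and MLL1 from 7 in WT to 11 in KO. HOTAIR, a regulatory RNA between HOXC11 and HOXC12, had H3K27ac of 8.09 and 10.6 in WT and none in KO, and MLL1 of 3.89 in KO and none in WT. HOTAIR was named after its values were seen. Of the 8 genes that flank the clusters, 4 had H3K4me3 in both WT libraries and 5 in both KO libraries, the added one being PRAC2, next to HOXB13, with 6.05 and 6.83 in KO. That peak also touches the lower coordinate end of HOXB13, away from the end with the main HOXB13 peak.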

How the data were processed

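MACS2 2.1.1 and the build hg38 are named in the submitters' processing notes. The authors called peaks in each library against the input of its genotype, per the peak names in the deposited files; H3K4me1 lists are broad peaks and the others narrow peaks. Column 7 of the deposited lists is the ratio (fold enrichment) of a peak over the background from input, and column 9 its −log10 q-value, both the authors' values. Read numbers are not in these lists, so the depth of each library is unknown and no interval from it is given. The rule for the members uses no measured value, but the HOX clusters and the gene lists were chosen with earlier results of these data known. Overlaps needed at least 1 bp. Peaks were placed on RefSeq genes and starts of GRCh38.p14, the assembly of hg38. Calls, folds, window coverage and merged regions were computed in Python 3.11.15 with pandas 2.3.3 and NumPy 2.4.6, and the code was tested on simulated peak lists. Window coverage was compared with an exact permutation test over libraries; promoter calls and folds have no test and stand beside the share of all genes.

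Per-library values are given for the 2 members per cluster of highest WT H3K4me3, members called in 1 genotype for H3K4me3 or H3K27ac, up to 6 with a change of at least 2 times in either mark, and for the other targets the 3 of highest WT fold and up to 4 called in 1 genotype. From related lists up to 3 genes of highest WT H3K4me3 could be named. Replicate lists shared no identical peak. Marker lists of other cell types carried H3K4me3 in both WT libraries at 1 of 7 blood, 2 of 6 fibroblast and 3 of 5 neuron genes. The share of all genes was 60.8%.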

Additional observations from a re-analysis of the deposited data

How the results depend on the processing

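The replicate numbers are not said to pair libraries, and the deviations of same-numbered libraries from their genotype means had correlations of -0.215 for H3K4me3, -0.116 for H3K27ac and 0.0162 for p53. With the replicate number as a block, the exact sign-flip test of window coverage gave p = 0.5, the smallest that 2 pairs allow, in 9 of 12 window tests and 1 in the other 3. Neither test can reach a threshold with these numbers, so they say nothing of stability. The log2 KO over WT of H3K27ac in HOXD was -2.55 as without the block. H3K4me1, MLL1 and MLL4, with 1 library per genotype, have no test, and the unknown depth limits each comparison of list lengths.

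With peaks of a −log10 q-value of at least 5, WT-only promoters numbered 19 for H3K4me1 (7 with all peaks), 9 for MLL4 (20) and 3 for p53 (1), and KO-only promoters 0 for H3K4me1 (1). WT-only distal regions numbered 21 for H3K27ac (35), 8 for H3K4me1 (28), 3 for MLL1 (13) and 6 for MLL4 (27), and KO-only ones 0 for H3K4me1 (1), 9 for MLL1 (18) and 2 for p53 (4). The log2 coverage of H3K4me1 was -3.33 (-1.45), and median log2 folds were -0.52 for H3K4me1 (-0.74) and 1.69 for MLL1 (1.44). With lists of equal length, WT-only promoters numbered 5 for H3K27ac (9), 2 for H3K4me1 and 0 for MLL4, and KO-only 3 for H3K4me1. WT-only distal regions then numbered 5 for H3K27ac, 2 for H3K4me1, 6 for MLL1 and 0 for MLL4, KO-only 2 for H3K4me1, and the log2 coverage was -1.13 for H3K4me1 and 0.68 for MLL1 (0.62). MLL4 lists are of such unequal length that this leaves the WT list with 278 peaks.

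Within 5 kb of the gene start, WT-only promoters numbered 4 for H3K27ac, 2 for H3K4me1 and 0 for p53, and KO-only 0 for p53 (2). With the middle of the peak in the window, KO-only promoters numbered 6 for H3K4me1 and 0 for p53, and WT-only 1 for MLL1 (0). The width-weighted mean fold gave an H3K27ac median of -0.96 (-1.14). With either gene end for every member, chosen after seeing the data, median log2 folds were 0.030 for H3K4me3 (-0.18), -0.60 for H3K4me1 and 1.34 for MLL1, and p53 had 0 WT-only promoters.

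Leaving out each replicate in turn gave 0 to 1 WT-only promoters for H3K4me3 and 1 to 3 for p53. WT-only distal regions ranged from 0 to 2 for H3K4me3 (0), 41 to 79 for H3K27ac (35) and 7 to 19 for p53 (6), and KO-only ones from 1 to 2, 1 to 5 and 4 to 30 (0, 0 and 4), with fewer lists to satisfy. The highest were 79 without WT replicate 1 (H3K27ac) and 30 without KO replicate 1 (p53). Median log2 folds ranged from -0.37 to 0.12 for H3K4me3, -1.15 to -0.86 for H3K27ac and -1.52 to -0.56 for p53. Log2 coverage ranged from -0.41 to 0.13 for H3K4me3 in HOXB (-0.14), -0.048 to 0.72 for p53 in HOXB (0.34) and -0.64 to 0.44 for p53 in HOXD (-0.10).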

Other observations

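H3K4me3 peaks inside the HOX windows also lay at noncoding genes, in peaks that reach no member promoter as counted here. LINC02086, a long noncoding RNA gene between HOXB9 and HOXB13 (chr17:48642627-48707346), had folds of 167 and 228 in WT and 75.4 and 135 in KO, with both KO values below both WT values. HOXC-AS2, an antisense RNA gene next to HOXC9, had 105 and 134 in WT and 112 and 120 in KO, which overlap. MIR615, a microRNA gene inside HOXC5, had 70.4 and 69.5 in WT and 34.1 and 60.3 in KO, lower in both KO libraries. HOXC5 was read only at the start it shares with HOXC4 (chr12:54016888). The peak at MIR615 therefore cannot be assigned to MIR615 or to HOXC5. HOXBLINC, a long noncoding RNA gene within the span of HOXB3, had 26.1 and 72.8 in WT and 55.6 and 89.4 in KO. Unlike at the genes above, the replicate 2 folds there are those of the peak at HOXB4. HOXB3 (chr17:48548870-48590241) was read at its ends alone, so H3K4me3 at a start inside it would be missed. These genes were named after their values were seen, and no test was run on them.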
